A study of Mus musculus with 4 samples.

Results

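The genes described here are 10 of the 31053 counted in nuclei of the mouse superior colliculus: the ephrin-A ligands Efna2, Efna3 and Efna5 and the EphA receptors Epha3, Epha4, Epha5, Epha6, Epha7, Epha8 and Epha10. They were chosen by symbol, and each symbol matched 1 gene of the count matrix. The other 4 members of the family in the matrix, Efna1, Efna4, Epha1 and Epha2, were counted with the pathway genes. Nuclei came from C57BL/6J mice and were counted on the 10x Genomics 3' v3 platform at 4 ages, E19 (embryonic day 19) and days 4, 8 and 21 after birth (P4, P8 and P21). The protocol text gives the embryonic stage as E19 and, in brackets, as E10, and E19 is used because the title and the stage label both give it. Each stage was 1 library made from tissue pooled from several animals, with no treatment or genetic change in any group. The study compared the makeup and gene expression of the colliculus across these stages, and with 1 library per stage a difference between stages has no replicate check, so stage values are given with counting intervals and no test.

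Ephrin-A proteins are tethered to the cell surface by a lipid anchor, and EphA proteins are receptor tyrosine kinases that bind them on a neighbouring cell. The signal can run forward into the cell with the receptor or in reverse into the cell with the ephrin, and at an axon tip it often causes repulsion. In the superior colliculus, the midbrain target of retinal ganglion cell axons, graded ephrin-A along the anterior to posterior axis meets graded EphA on retinal axons, which helps to lay out the map of visual space. Collicular neurons carry EphA receptors of their own, and glia carry members of both families.

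The libraries held 2585, 2386, 2504 and 2249 nuclei at E19, P4, P8 and P21, with totals of 19277512, 23579145, 27436259 and 31325079 unique molecular identifiers (UMIs, each standing for 1 captured RNA molecule). The authors' deposited annotation places the 9724 nuclei in 9 classes and 35 subtypes, among them 13 subtypes of excitatory neurons (EN1 to EN13) and 12 of inhibitory neurons (IN1 to IN12). The neuron labels held against their markers: summed excitatory transmitter genes lay between 179 and 286 counts per 1000000 UMIs (CPM) in excitatory neurons and between 8.49 and 46.3 in inhibitory neurons, and summed inhibitory genes between 682 and 956 CPM in inhibitory neurons and between 35.3 and 59.7 in excitatory neurons. Excitatory nuclei held more UMIs than inhibitory ones in every library, with medians of 8052, 11738, 14158 and 19601 UMIs per nucleus against 6075, 7684, 9265 and 14010. Subtype EN7 had 33 and 191 nuclei at E19 and P4 and 1 nucleus in each later library, and 9 barcode sequences occurred in more than 1 library.

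Positions are those of the GRCm38 assembly. The ligand genes are short to middling: Efna2 spans 10.5 kb on chr10:80179482-80190010 (plus strand), Efna3 9.07 kb on chr3:89313899-89322965 (minus) and Efna5 277 kb on chr17:62604184-62881317 (minus). The receptor genes run up to the 952 kb of Epha6 on chr16:59653483-60605531 (minus), with Epha3 at 321 kb on chr16:63543534-63864175 (minus), Epha4 at 148 kb on chr1:77367185-77515088 (minus) and Epha5 at 363 kb on chr5:84054761-84417382 (minus). Another 3 receptor genes lie on chromosome 4: Epha7 at 154 kb on chr4:28813131-28967499 (plus), Epha8 at 27.4 kb on chr4:136929419-136956816 (minus) and Epha10 at 36.9 kb on chr4:124880899-124917800 (plus). The GENCODE M21 annotation places 1 or more other genes on the same strand within Epha3, Epha4 and Epha6, and on the opposite strand at Efna3, Epha5, Epha6, Epha7 and Epha10. It places none over Efna2, Efna5 or Epha8. The use of strand in the counting is not given in the sources used here. Reads of these overlapping genes may therefore be shared.

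The 250 bases upstream of the start site are shown for 3 of the genes (RefSeq, GRCm38.p6, each written 5' to 3' on the gene's own strand): Efna2 and Efna5, the members that were lower at P21 than at E19 in every neuron subtype that could be compared, and Epha5, the 1 member with a match to the homeodomain-type motif TAATTA, which is printed in capitals. The regions are chr10:80179232-80179481 (plus strand) for Efna2, chr17:62881318-62881567 (minus) for Efna5 and chr5:84417383-84417632 (minus) for Epha5.
Efna2: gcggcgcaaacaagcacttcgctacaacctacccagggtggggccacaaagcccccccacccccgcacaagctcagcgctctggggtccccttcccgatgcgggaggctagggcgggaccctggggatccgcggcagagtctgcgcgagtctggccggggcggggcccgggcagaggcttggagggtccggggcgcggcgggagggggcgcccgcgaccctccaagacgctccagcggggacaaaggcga
Efna5: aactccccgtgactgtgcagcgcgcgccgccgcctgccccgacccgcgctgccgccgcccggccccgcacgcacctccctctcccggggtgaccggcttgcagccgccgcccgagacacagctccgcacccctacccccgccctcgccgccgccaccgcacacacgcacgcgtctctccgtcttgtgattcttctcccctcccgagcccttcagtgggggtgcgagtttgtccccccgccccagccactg
Epha5: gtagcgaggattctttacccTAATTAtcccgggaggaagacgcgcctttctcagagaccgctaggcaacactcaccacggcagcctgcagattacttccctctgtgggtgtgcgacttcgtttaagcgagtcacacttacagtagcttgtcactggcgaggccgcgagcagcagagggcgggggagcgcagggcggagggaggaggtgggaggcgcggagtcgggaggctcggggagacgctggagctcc
These stretches were rich in G and C (73.6%, 74.8% and 62.4% of bases), with 25, 32 and 20 CG pairs, against medians of 52.4% and 6 over 32851 promoters of the same length. Over all members' start sites the G and C content ran from 62.4% to 84.0% and the CG pairs from 14 to 46. TAATTA, which reads the same on both strands, occurred in 4.84% of all these promoters. CAGCTG, an E-box that also reads the same on both strands, occurred upstream of Epha6 and Epha10 and in 13.0% of promoters, and TATAAA, searched on both strands, occurred upstream of none of the 10 and in 12.4%.

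Nuclear UMI counts tend to grow with the length of the unspliced gene, so levels are compared between genes only per 100 kb of gene. That they grow in proportion to length was not checked, and the order of genes depends on this scale. In plain CPM, Epha6 had the highest mean over the 4 libraries, 725 in excitatory and 720 in inhibitory neurons. Efna5 had 606 and Efna2 22.2 in excitatory neurons. Per 100 kb, Epha10 had the highest value of the members over all neurons, at 645, 983, 1058 and 799 CPM in the 4 libraries in order of age. The ligands Efna2 (353, 206, 204 and 109) and Efna5 (262, 212, 187 and 150.1) came next at E19, and Epha3 was the lowest in every library (45.2, 53.3, 42.2 and 28.2). Efna2, Efna3 and Efna5 were each lower per 100 kb at P21 than at E19, whereas Epha4 (99.5, 126, 133 and 146) and Epha6 (62.7, 69.7, 83.9 and 87.3) were higher. By P21 Epha4 and Epha7 (149) were level with Efna5 on this scale.

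The members divided between the neuron classes and between the stages. Between excitatory and inhibitory neurons, 3 members were called higher in excitatory neurons (Efna5, Epha5 and Epha8), where 9.48% of all 14799 genes tested were, and 2 were called higher in inhibitory neurons (Epha3 and Epha10), where 7.72% of all genes were; the other 5 were not called. Calls are edgeR quasi-likelihood tests with Benjamini-Hochberg adjusted p under 0.05 on UMIs summed per class and library, with the library as a block. Between E19 and P21, 4 members were lower by more than 1.5-fold in excitatory neurons (Efna2, Efna3, Efna5 and Epha3), where 21.9% of the genes at 10 CPM or more were, and none was higher, where 12.5% were. In inhibitory neurons the same 4 were lower (22.1% of all genes) and 2 were higher, Epha4 and Epha6 (13.8% of all genes). Stage ratios are log2((CPM + 5)/(CPM + 5)), which understates the change of low genes. The median member had a log2 ratio of -0.12 in excitatory and -0.25 in inhibitory neurons, beside -0.08 and -0.07 for all genes.

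**Figure D1:**
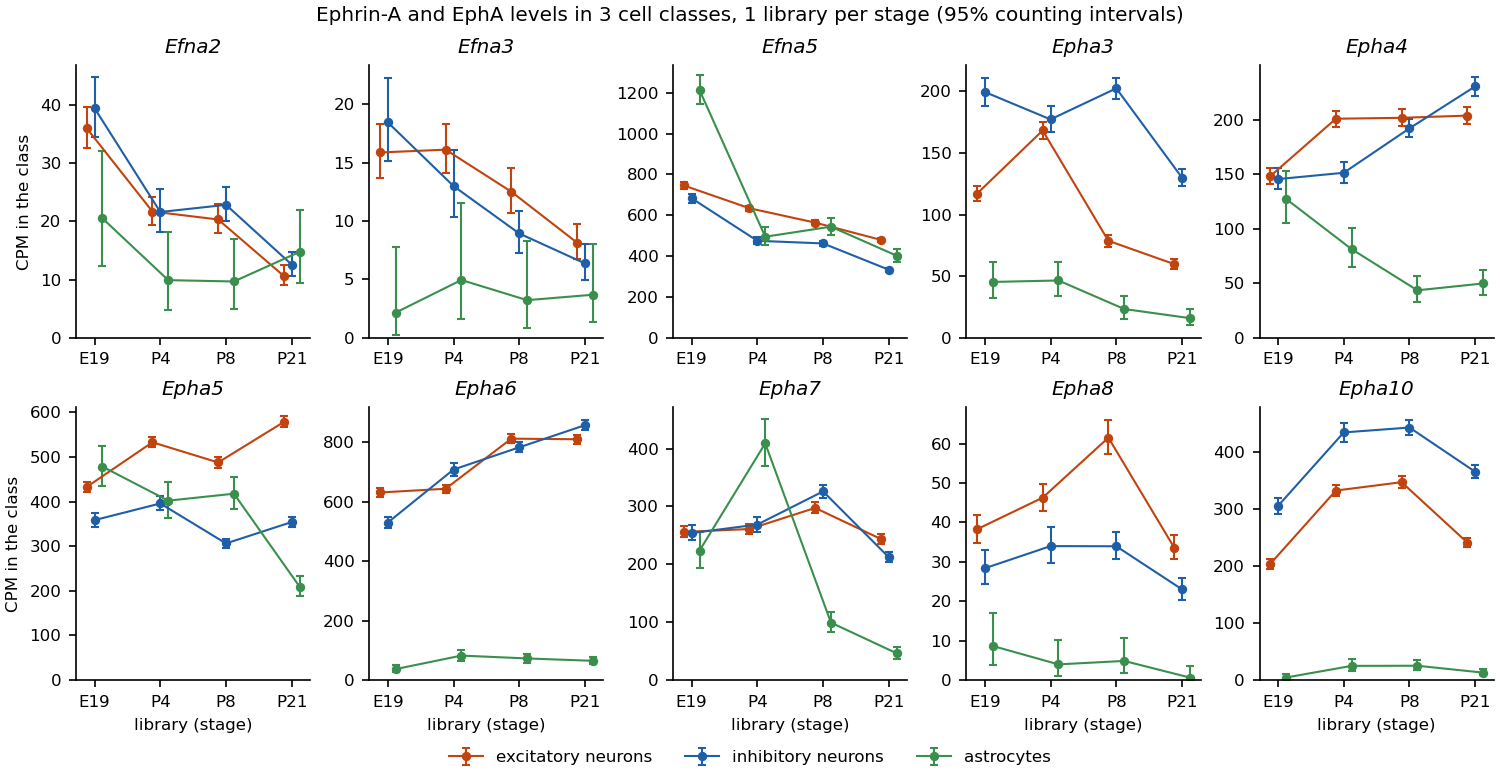
Level of each member in CPM (vertical axis) at the 4 stages (horizontal axis) in excitatory neurons, inhibitory neurons and astrocytes, 1 library per stage; bars are exact 95% Poisson intervals, which cover counting error only. The 3 ligands are lower at P21 than at E19 in both neuron classes, Epha6 climbs from 530 to 858 CPM in inhibitory neurons, and the astrocyte line of Efna5 starts at 1214 CPM and ends at 402.

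Efna5 encodes ephrin-A5, which with ephrin-A2 is needed for an orderly collicular map. It stood at 746, 635, 564 and 480 CPM at the 4 ages in excitatory neurons, and at 683, 475, 462 and 333 CPM in inhibitory neurons. The level was lower at each later stage in both classes, with overlapping intervals only between P4 and P8 in inhibitory neurons, and excitatory neurons were the higher class in 4 of 4 libraries, with counting intervals that did not overlap. The inhibitory level was 0.916, 0.749, 0.819 and 0.695 of the excitatory one, and edgeR put the log2 ratio at -0.38 ± 0.07 (SE, adjusted p = 0.00942). From E19 to P21 the level changed to 0.643 of its start in excitatory neurons (95% counting interval 0.623 to 0.663) and to 0.488 in inhibitory neurons (0.467 to 0.510). The excitatory ratio, a log2 of -0.63, lay within 1.5-fold when libraries were scaled by their median of ratios (-0.50) or neurons were classed by their transmitter genes (-0.58). Scaling by the median of ratios adds 0.13, 0.12 and 0.31 to log2 ratios from E19 to P21 in excitatory neurons, inhibitory neurons and astrocytes.

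Within inhibitory neurons Efna5 ran from levels that overlapped those of microglia to the highest of any neuron subtype. IN5 had 1690, 1218, 928 and 876 CPM and IN7 had 1617, 1324, 1252 and 912. IN3 had 106, 101, 79.8 and 64.7 CPM and IN10 had 162, 172, 103 and 70.7. IN5 and IN7 were among the top 3 of the neuron subtypes and IN3 and IN10 among the lowest 3 in all 4 libraries, and the top stood 15.9, 13.1, 15.7 and 14.1-fold above the bottom. Microglia, taken here as a reference for background, had 106, 41.3, 79.0 and 72.0 CPM in 13 to 33 nuclei. The IN3 intervals overlapped theirs in every library. Nuclei of the oligodendrocyte lineage had lower values than IN3 in each library, at 81.4, 61.6, 55.9 and 17.9 CPM. At E19, P8 and P21 these were below microglia too, so microglia do not mark the floor there. Most neighbours in the order could not be told apart: 22 of 24 neighbouring pairs at E19 and 18 of 22 at P21 had overlapping counting intervals. Ranks of 23 subtypes correlated between libraries with a Spearman correlation of 0.73 to 0.94, a description over subtypes that share a library and its depth.

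The Efna5 level was lower at P21 than at E19 in 23 of 23 neuron subtypes with at least 20 nuclei in both libraries, and beyond the counting interval in 20 of them. All 12 inhibitory subtypes were lower beyond counting, with a median ratio of 0.45, and 8 of 11 excitatory subtypes were, with a median of 0.64. The ratio ran from 0.26 to 0.91. Efna5 and Efna2 were the 2 members lower in all 23 subtypes, where 9.43% of 9904 genes were, and 0 members were higher in all 23, where 5.79% were.

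Counted per nucleus, with every nucleus thinned to 2300 UMIs (no nucleus was shallower), 52.3%, 53.9%, 53.3% and 55.6% of excitatory nuclei held an Efna5 UMI, against 45.5%, 39.6%, 38.5% and 34.5% of inhibitory nuclei. The share stayed level in excitatory neurons while it was lower at each later stage in inhibitory neurons. Without thinning the shares were 70.3%, 77.8%, 80.7% and 86.4% in excitatory and 61.5%, 64.1%, 61.5% and 62.7% in inhibitory neurons, whose median depths were higher at each later stage. Microglia, with medians of 2984 to 4324 UMIs, had thinned shares of 23.1%, 8.70%, 9.52% and 12.1%.

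Efna2 encodes ephrin-A2. Excitatory neurons had 36.0, 21.7, 20.3 and 10.6 CPM and inhibitory neurons 39.4, 21.6, 22.8 and 12.6 CPM. The classes overlapped in all 4 libraries (log2 ratio of inhibitory over excitatory 0.09 ± 0.07, edgeR adjusted p = 0.456), and in both the level stepped down between E19 and P4 and again between P8 and P21. The P21 level was 0.295 of the E19 level in excitatory neurons (0.244 to 0.355) and 0.319 in inhibitory neurons (0.257 to 0.394), the lowest ratio of any member in each class. It was lower in 23 of 23 subtypes and beyond counting in 20, with a median ratio of 0.24. EN13 was among the top 3 subtypes in all 4 libraries, with 69.6, 54.0, 46.4 and 19.1 CPM, although 24 of 24 neighbouring pairs overlapped at E19 and 22 of 22 at P21.

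Efna3, encoding ephrin-A3, was the ligand with the fewest counts. It had 15.9, 16.1, 12.5 and 8.15 CPM in excitatory neurons and 18.5, 13.0, 8.93 and 6.37 CPM in inhibitory neurons, and the class difference was not called (log2 ratio -0.27 ± 0.13, edgeR adjusted p = 0.201). The level was lowest at P21 in both classes, at 0.513 of the E19 level in excitatory neurons (0.404 to 0.650) and 0.345 in inhibitory neurons (0.253 to 0.469). With a pseudocount of 20 CPM in place of 5 both log2 ratios lay within 1.5-fold (-0.35 and -0.54), and with median-of-ratios scaling the excitatory one did (-0.58). Its subtype order was not repeated between libraries, with a Spearman correlation of -0.15 to 0.37 over 23 subtypes.

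**Figure D2:**
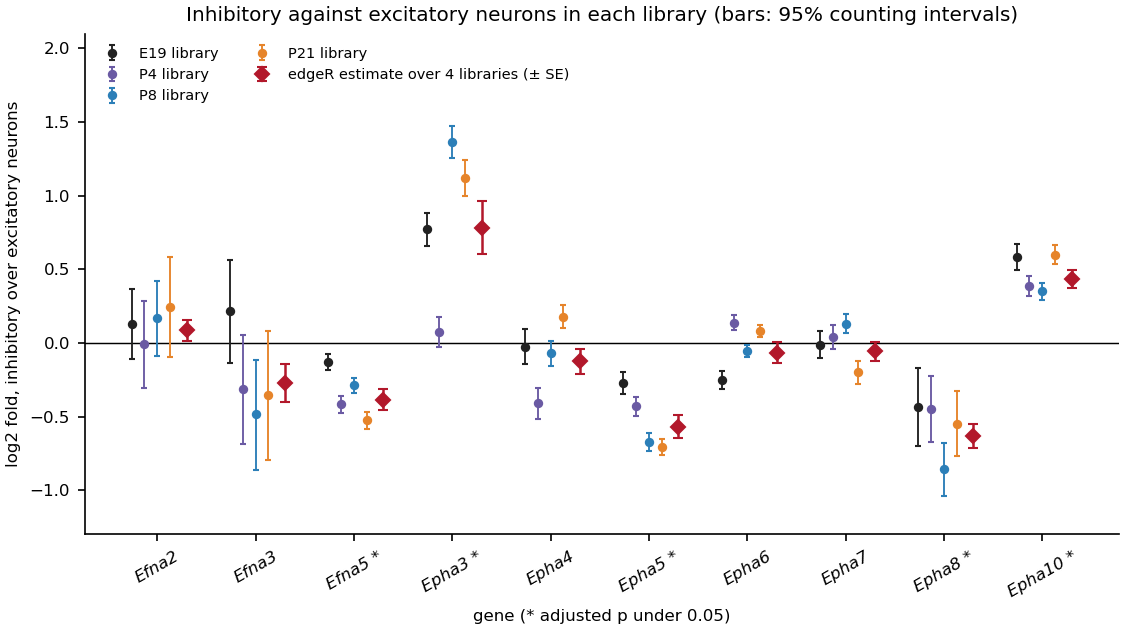
Log2 ratio of inhibitory over excitatory neurons for each member (vertical axis) in each of the 4 libraries, with 95% counting intervals, and the edgeR estimate over the 4 libraries with its SE. Efna5, Epha5 and Epha8 lie below 0 and Epha10 above 0 in every library, Epha3 is at 1.05-fold in the P4 library and at 1.71 to 2.57-fold in the others, and Epha4, Epha6 and Epha7 change side between libraries.

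Epha3 was the receptor with the largest class difference. Excitatory neurons had 117, 168, 78.7 and 59.8 CPM and inhibitory neurons 199, 177, 202 and 130 CPM. Inhibitory neurons were higher in 4 of 4 libraries, by 1.71, 1.05, 2.57 and 2.17-fold, but the classes overlapped at P4, where excitatory neurons had their highest value. The log2 ratio was 0.78 ± 0.18 (edgeR adjusted p = 0.0197), and the call was lost without the E19, the P8 or the P21 library (adjusted p = 0.0628, 0.0898 and 0.0568). EN7, which held 191 of the 1206 excitatory nuclei at P4, had 463 CPM at E19 and 500 at P4, the highest Epha3 levels among excitatory subtypes. Leaving EN7 out gave a log2 ratio of 1.03 with an edgeR adjusted p of 5.8e-05, and changed the excitatory log2 ratio from P4 to P8 from -1.05 to -0.22. Over 13 excitatory subtypes the P4 level of Epha3 was a median 0.877 of the E19 level, with 1 subtype higher and 5 lower beyond counting, and over 11 the P8 level was a median 0.933 of the P4 level. EN7 also had a high summed level of genes listed as markers of the neighbouring thalamus or pretectum (Tcf7l2, Lef1, Prox1 and Rorb). The sum was 3380 CPM at E19 against 1623 over all excitatory neurons. It was 1621 CPM in astrocytes and 753 in inhibitory neurons of that library, so the list is not particular to neurons of that tissue. In that library the sum was also high in EN6 (8330), EN5 (3649) and EN9 (3140), with 24.8, 27.9 and 41.1 CPM of Epha3. A link between these markers and the Epha3 level was not tested.

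Subtypes differed widely in Epha3. IN10 had 886, 699, 573 and 347 CPM and IN12 had 222, 456, 668 and 200 CPM. EN5 had 27.9, 17.8, 27.4 and 13.3 CPM and was among the lowest 3 in every library. The top subtype stood 35.8, 40.6, 28.8 and 33.2-fold above the bottom one, and the order held between libraries (Spearman correlation 0.80 to 0.96, 23 subtypes). IN10 and IN12 thus carried much Epha3, and IN10 was at the same time near the bottom for Efna5. IN5, by contrast, was among the top 3 subtypes for both genes at E19, P8 and P21. Over 56 points of subtype and library the Pearson r of Efna5 and Epha3 was -0.04, with 0.40, 0.35, -0.27 and -0.17 within the 4 libraries. In IN12 at P4, 1 nucleus of 22 gave 39.1% of the Epha3 UMIs, and without it the level was 301 CPM; in IN10 at E19 the top nucleus gave 12.2%, and 815 CPM remained. The level was lower at P21 than at E19 in 19 of 23 subtypes, beyond counting in 12, and higher beyond counting in 1.

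Over the classes, Epha3 at P21 was 0.512 of its E19 level in excitatory neurons (0.470 to 0.558) and 0.652 in inhibitory neurons (0.603 to 0.704). The inhibitory log2 ratio of -0.60 was at the edge of the 1.5-fold limit and lay within it with a pseudocount of 20 CPM (-0.55), with median-of-ratios scaling (-0.49) or with nuclei weighted alike (-0.39).

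Epha4, a receptor that also binds ephrin-B ligands, was higher in inhibitory neurons at P21 than at E19. Levels were 145, 151, 192 and 230 CPM in inhibitory neurons and 148, 201, 202 and 204 CPM in excitatory neurons. The inhibitory level was below the excitatory one at P4 (0.753 of it) and above it at P21 (1.13-fold), both beyond counting, and over 4 libraries the log2 ratio was -0.12 ± 0.09 (edgeR adjusted p = 0.374). From E19 to P21 the inhibitory level was 1.58-fold higher (1.47 to 1.71). This log2 ratio of 0.65 was 0.25 when the 12 inhibitory subtypes were weighted alike, and 4 of the 12 were higher beyond counting and 1 was lower. In IN4 at P21, 1 nucleus gave 29 Epha4 UMIs, 9.70% of the subtype and 29 of the 2604 in the class, and without it the IN4 level was 238 CPM in place of 264. IN3 went from 43.0, 63.1 and 53.8 CPM at E19, P4 and P8 to 227 at P21, the largest ratio of any subtype (5.27-fold). IN7 was the top subtype in every library (463, 458, 532 and 607 CPM), with 6, 3, 0 and 0 other subtypes overlapping it, while IN10 (44.3, 41.7, 75.4 and 46.4 CPM) was among the lowest 3 in every library.

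Epha5 and Epha6 are receptors known for their graded levels across the mouse retina. Epha5 had 433, 533, 488 and 578 CPM in excitatory neurons and 358, 396, 306 and 354 CPM in inhibitory neurons. Excitatory neurons were higher in 4 of 4 libraries without overlap, and the inhibitory level was 0.828, 0.743, 0.628 and 0.612 of theirs (log2 ratio -0.57 ± 0.08, edgeR adjusted p = 0.00239). The class levels at E19 and P21 lay within 1.5-fold in both classes. Within subtypes Epha5 was higher at P21 in 10 of 11 excitatory subtypes, beyond counting in those 10, with a median of 1.56-fold over the 11. In inhibitory neurons 5 of 12 subtypes were higher and 2 lower beyond counting, with a median of 1.11-fold. The class log2 ratio in excitatory neurons was 0.41, and 0.62 with the subtypes weighted alike, which is past 1.5-fold.

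EN8 had 649, 755, 697 and 753 CPM of Epha5 and was among the top 3 subtypes in every library. EN4 (461, 610, 662 and 824 CPM) came to exceed it at P21, with overlapping intervals. EN13 started lowest at 94.9 CPM and had 108, 157 and 299 CPM at the later stages. IN3 went the other way, with 169, 158, 130 and 103 CPM, and was the lowest subtype at P8 and P21. IN3 was thus low for Efna5, Epha5 and, until P8, Epha4.

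Epha6, the longest of the genes, was also higher in inhibitory neurons at P21. Levels were 631, 644, 813 and 811 CPM in excitatory neurons and 530, 709, 783 and 858 CPM in inhibitory neurons. The classes changed order between libraries, with inhibitory over excitatory ratios of 0.840, 1.10, 0.964 and 1.06 (log2 ratio -0.07 ± 0.07, edgeR adjusted p = 0.579). The inhibitory level was 1.62-fold higher at P21 than at E19 (1.55 to 1.69), and it was higher in 10 of 12 inhibitory subtypes, beyond counting in all 10, with a median of 2.04-fold. In excitatory neurons 8 of 11 subtypes were higher beyond counting and 2 were lower. EN10 led at E19, P4 and P8 (1729, 1376 and 1602 CPM) and had 1100 at P21, when IN11 led with 1616. IN4 was low throughout with 69.0, 213, 221 and 353 CPM, and the top stood 25, 7.40, 15.3 and 9.65-fold above the bottom in the 4 libraries.

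Epha7 is a receptor with a known collicular gradient, and no class difference was called. Excitatory neurons had 256, 261, 297 and 244 CPM and inhibitory neurons 254, 269, 326 and 212 CPM (log2 ratio -0.05 ± 0.06, edgeR adjusted p = 0.619), with inhibitory neurons 1.10-fold higher at P8 and 0.871 of excitatory neurons at P21. Class levels at E19 and P21 were within 1.5-fold, but the level was lower at P21 in 17 of 23 subtypes, beyond counting in 14, with a median ratio of 0.74. EN13 had 975, 670, 675 and 621 CPM and IN7 had 738, 483, 587 and 386 CPM, both among the top 3 subtypes in every library. EN12 (20.6, 99.5, 60.4 and 102 CPM) and IN1 (142, 165, 140.0 and 105 CPM) were among the lowest 3 in every library.

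Epha8, a receptor whose loss misroutes commissural axons of the colliculus, was low in counts and higher in excitatory neurons. Levels were 38.2, 46.3, 61.5 and 33.6 CPM there and 28.3, 34.0, 33.9 and 23.0 CPM in inhibitory neurons, without overlap in any library. The inhibitory level was 0.741, 0.734, 0.552 and 0.684 of the excitatory one, lower in 4 of 4 libraries (log2 ratio -0.63 ± 0.08, edgeR adjusted p = 0.00141). In excitatory neurons the level peaked at P8, and P21 was 0.547 of P8 (0.488 to 0.612). EN5 was among the top 3 subtypes in every library with 94.0, 122, 90.8 and 64.9 CPM, and EN5 was also among the lowest for Epha3.

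Epha10, which lacks kinase activity, was higher at P4 and P8 than at E19 and P21 in both classes. Excitatory neurons had 203, 332, 347 and 241 CPM and inhibitory neurons 305, 434, 443 and 365 CPM. Inhibitory neurons were above excitatory ones in 4 of 4 libraries without overlap, by 1.5, 1.31, 1.28 and 1.52-fold (log2 ratio 0.43 ± 0.06, edgeR adjusted p = 0.00239). From E19 to P4 the level was higher in 22 of 25 subtypes, beyond counting in 17, with a median of 1.62-fold. From P8 to P21 it was lower in 22 of 23, beyond counting in 17, with a median ratio of 0.72. The exception was IN3, with 298, 499, 511 and 590 CPM. EN6 had 24.8 CPM at E19 and 124, 219 and 194 CPM later, and the top subtype stood 22.0, 4.39, 2.53 and 4.98-fold above the bottom one in the 4 libraries. Thinned shares of nuclei with an Epha10 UMI were 30.3%, 49.4%, 53.3% and 40.3% in excitatory and 46.0%, 58.0%, 62.0% and 54.6% in inhibitory neurons, against 0%, 0%, 9.52% and 6.06% in microglia.

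Shares of nuclei were counted for other members in the same way. For Epha6, thinned shares were 46.7%, 60.4%, 69.1% and 69.4% in excitatory and 43.2%, 58.4%, 62.8% and 70.0% in inhibitory neurons, against 0%, 13.0%, 23.8% and 27.3% in microglia. For Epha5 they were 44.8%, 56.8%, 54.4% and 67.3% in excitatory and 40.1%, 46.1%, 40.4% and 44.7% in inhibitory neurons, against 7.69%, 21.7%, 19.0% and 24.2% in microglia. For Epha3 they were 14.9%, 22.1%, 15.3% and 9.68% against 25.8%, 25.9%, 29.3% and 21.6%, with 0% to 8.70% in microglia. All neuron shares of these 3 receptors were above the microglial share of the same library. Efna2 was found in few nuclei at this depth, 3.08% to 7.10% of excitatory and 3.65% to 8.73% of inhibitory nuclei, and the E19 shares were at the microglial level of 7.69%, which was 1 of 13 nuclei.

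**Figure D3:**
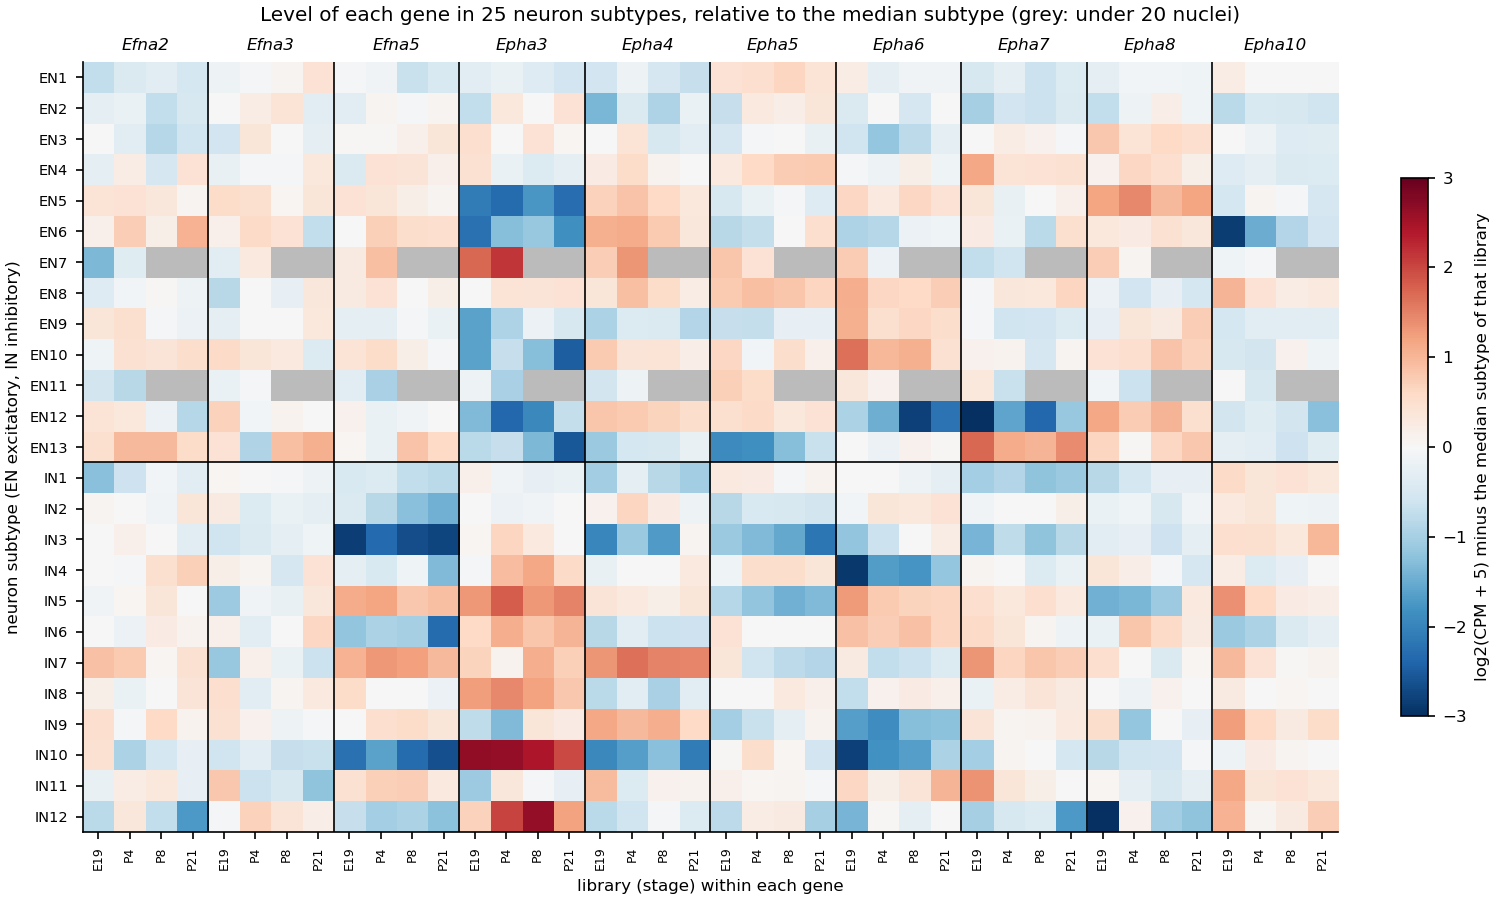
Level of each member in the 25 neuron subtypes (vertical axis) by gene and stage (horizontal axis), as log2(CPM + 5) minus the median subtype of that gene and library; grey marks fewer than 20 nuclei. Bands of one colour across the 4 stages show subtype differences that recur between libraries, as in Efna5 (IN5 and IN7 high, IN3 and IN10 low), Epha3 (IN10 high, EN5 low) and Epha7 (EN13 high, EN12 low).

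Astrocytes were set against all neurons of the same library in the same kind of test. In this test 6 members were called higher in neurons (Efna3, Epha3, Epha4, Epha6, Epha8 and Epha10), where 23.1% of 14787 genes were, and 0 were called higher in astrocytes, where 21.9% were. Epha10 had the largest difference, a log2 ratio of astrocytes over neurons of -4.56 (edgeR adjusted p = 2.14e-05), then Epha6 at -3.75 (1.47e-05), both lower in astrocytes in 4 of 4 libraries. Efna5 (-0.09, edgeR adjusted p = 0.746) and Epha5 (-0.52, adjusted p = 0.106) were not called. Efna2 (-0.86) and Epha7 (-1.06) missed the threshold with adjusted p of 0.0563 and 0.099, and were called by DESeq2 (0.0491 and 0.0339) and without the filter on low counts (0.027 and 0.0423). Efna2 was also called without the P21 library (edgeR adjusted p = 0.00122) and Epha7 without the P4 library (0.0185). Astrocyte markers were at 2160 to 5960 CPM in this class, and summed neuron markers at 307 to 364 CPM, against 1728 to 2843 in excitatory neurons.

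Astrocytes had Efna5 at 1214, 495, 544 and 402 CPM, so the E19 value stood above that of both neuron classes and the later values did not stand above excitatory neurons. From E19 to P21, 5 members were lower by more than 1.5-fold in astrocytes (Efna5, Epha3, Epha4, Epha5 and Epha7), where 33.0% of 10716 genes were, and 2 were higher (Epha6 and Epha10), where 14.7% were. Both that were higher stayed low, at 36.7 and 64.6 CPM for Epha6 and 4.32 and 12.9 CPM for Epha10, and neither passed with a pseudocount of 20 CPM.

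The 2 astrocyte subtypes differed in the members they carried. Fibrous astrocytes, 41 to 55 nuclei per library, had Efna5 at 3107 CPM at E19 (2862 to 3368), above every neuron subtype in that library, and at 798, 881 and 587 CPM later. Protoplasmic astrocytes, 155 to 232 nuclei, had 723, 408, 472 and 372 CPM. Epha7 was far higher in the fibrous subtype, at 845, 1680, 322 and 132 CPM against 62.5, 43.4, 51 and 32.2 CPM in the protoplasmic one. A few nuclei carried much of the later Epha7: 1 nucleus gave 46.5% of the fibrous UMIs at P8 and 40% at P21, and without it the levels were 178 and 80.9 CPM. At E19 and P4 the top nucleus gave 27.3% and 14.2%, and 637 and 1484 CPM remained. For Efna5 at E19 the top nucleus gave 8.28%, and 2912 CPM remained. Epha5 moved in opposite ways in these subtypes, from 157 to 368, 713 and 437 CPM in fibrous and from 561 to 412, 354 and 172 CPM in protoplasmic astrocytes, and the astrocyte log2 ratio of -1.17 was -0.24 with the subtypes weighted alike.

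**Figure D4:**
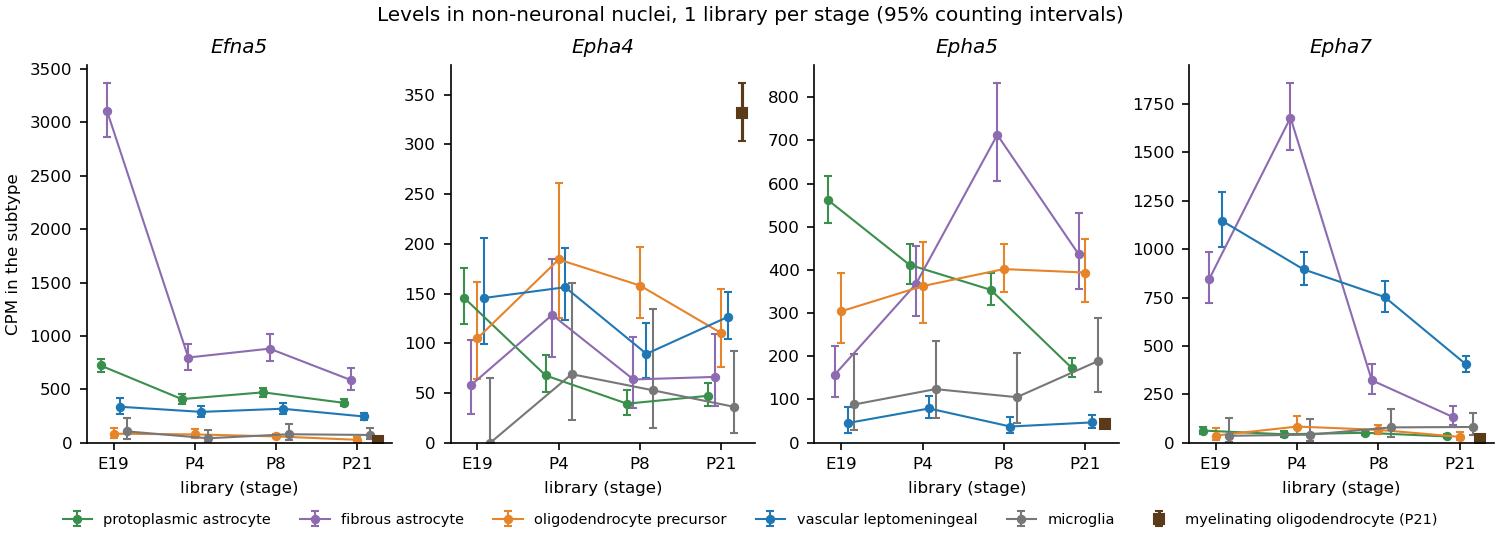
Level in CPM (vertical axis) of Efna5, Epha4, Epha5 and Epha7 at the 4 stages (horizontal axis) in non-neuronal subtypes, 1 library per stage with exact 95% Poisson intervals. Fibrous astrocytes start far above the rest for Efna5 (3107 CPM) and peak at P4 for Epha7 (1680 CPM), and myelinating oligodendrocytes, shown at P21, where they numbered 187 nuclei (1 at P8), are highest for Epha4 (332 CPM).

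In the oligodendrocyte lineage the receptors parted with maturation. Oligodendrocyte precursors had Epha5 at 304, 363, 402 and 394 CPM, with overlapping intervals, whereas myelinating oligodendrocytes, 187 nuclei at P21, had 44.0 CPM. Epha4 was the reverse, at 110 CPM in precursors, 272 in committed and 332 (304 to 362) in myelinating oligodendrocytes at P21. The myelinating level was above both neuron classes of that library, and in the same nuclei Efna5 was at 16.6 CPM, against 72.0 in microglia. Vascular leptomeningeal cells, fibroblast-like cells of the brain's coverings and vessels, had Epha7 at 1146, 895, 752 and 404 CPM in 36 to 139 nuclei. At E19 and P8 these were the highest values of the subtypes described, with intervals that overlapped those of EN13. Their Efna5 level was 336, 288, 318 and 245 CPM. Summed astrocyte markers in this class were 3164, 2764, 2925 and 1447 CPM, against 3364, 1990, 1787 and 1282 for its own markers, so they were above its own at P4, P8 and P21 and lowest, as Epha7 was, at P21. Their part in these values was not tested. Epithelial nuclei, 32 at P8 and 40 at P21, had Efna5 at 1372 and 709 CPM. The sum of epithelial markers in these nuclei was 408 and 429 CPM, the highest of any class in those libraries. Vascular leptomeningeal cells came next at 16.6 and 56.7 CPM. Of the epithelial markers, Krt8 and Krt18 were at 0 in these nuclei. The same nuclei also had 821 and 706 CPM of astrocyte and 638 and 666 CPM of vascular leptomeningeal markers. A part of such markers in the Efna5 level was not tested.

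Ligand and receptor UMIs were found in the same neurons. With nuclei thinned to 2300 UMIs, 50.7%, 55.6%, 55.1% and 55.9% of excitatory nuclei held at least 1 ephrin-A and at least 1 EphA UMI of the 10 members, and 47.4%, 42.0%, 41.3% and 36.9% of inhibitory nuclei did. Receptor UMIs were present in 88.8% to 98.0% of excitatory and 93.3% to 97.8% of inhibitory nuclei, so the joint share followed the ligand share, 56.7%, 57.8%, 56.6% and 57.3% in excitatory and 51.3%, 43.9%, 42.3% and 37.7% in inhibitory neurons. The receptor share in nuclei with and without a ligand UMI was close, and which was higher differed between libraries. In excitatory neurons it was 89.4%, 96.3%, 97.4% and 97.4% with a ligand UMI and 87.9%, 95.9%, 98.9% and 97.6% without. In inhibitory neurons it was 92.4%, 95.7%, 97.6% and 97.8% with a ligand UMI and 94.3%, 97.6%, 97.8% and 97.8% without. IN7 had both in 73.3%, 77.1%, 75.6% and 70.3% of nuclei and IN3 in 22.4%, 27.9%, 20.9% and 11.9%. In microglia at P4, P8 and P21 the thinned shares were 8.70%, 9.52% and 12.1% for ligands and 60.9%, 52.4% and 60.6% for receptors, so receptor UMIs were common in the background class too.

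Nuclei of a subtype were more uneven for Efna5 than for genes of a like level. The variance over the mean of thinned UMIs was compared, within each subtype and library with 50 or more nuclei, with that of genes of a like mean (within 25%). Efna5 was above the median of those genes at 55 of 56 points, with a median of 2.57 against 1.23. Epha6 was above at 51 of 56 (2.03 against 1.33), Epha4 at 50, Epha5 at 47 and Epha7 at 46, and Epha3 at 47 of the 49 points it could be measured at (1.57 against 1.04). Epha10 was not apart from such genes, above at 29 of 56 (1.13 against 1.12), nor was Epha8, above at 12 of 24. Efna2 could be measured at 6 points and Efna3 at none. The place of a nucleus along the axes of the map is not given in the annotation used here.

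**Figure D5:**
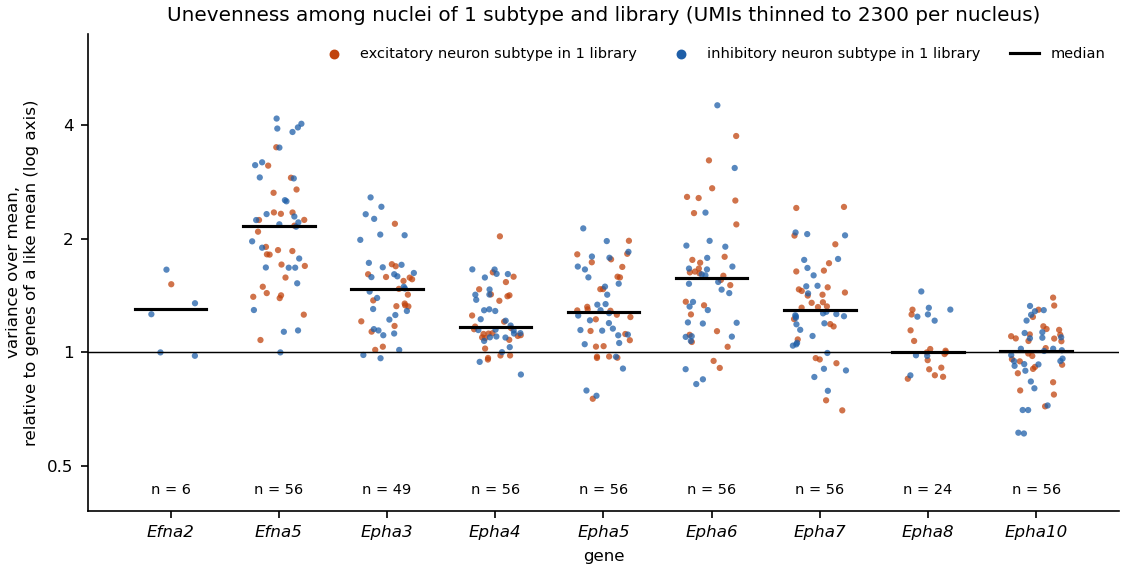
Variance over mean of thinned UMIs among nuclei of 1 neuron subtype in 1 library, divided by the median of genes of a like mean (vertical log axis), for 9 members (horizontal axis); bars are medians over n points. The Efna5 points lie above 1 at 55 of 56, while those of Epha10 and Epha8 are spread around 1.

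Over the 56 neuron subtype and library points, with levels centred within each library, Efna5 and Epha4 varied together (Pearson r 0.64 over all, and 0.68, 0.71, 0.72 and 0.46 within the 4 libraries), and so did Efna5 and Epha7 (0.47, with 0.42, 0.53, 0.41 and 0.66). Epha8 and Epha10 varied in opposite ways (-0.55, with -0.39, -0.62, -0.69 and -0.62). For Epha3 and Epha8 (-0.46) the values within libraries were uneven, at -0.08, -0.30, -0.68 and -0.49, as they were for Epha5 and Epha10 (-0.41, with -0.36, -0.52, -0.17 and -0.71). These points share libraries and, across libraries, subtypes, so no p is given.

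Among 7048 genes with a mean of 20 CPM or more, the 3 most like each member over the same 56 points were chosen by Pearson r. For the ligands they were Lhfpl3 (0.72), Sorcs2 (0.71) and Nrg3 (0.70) for Efna5, Pcdh8, Lef1 and Gpsm1 (0.56, 0.56 and 0.55) for Efna2, and Gas7, Pnck and Fam19a1 (0.59, 0.53 and 0.52) for Efna3, whose own mean was 12.2 CPM. Epha3 was most like Tln2 (0.72), Dscam (0.67) and Kcnmb2 (0.66), and Epha4 most like Sorcs2 (0.58), Galnt14 (0.56) and Grip1 (0.56). Sorcs2 was on the lists of both Efna5 and Epha4, and Galnt14 on those of Epha4 and Epha7. Members that vary together over the same points tend to share such genes, so this is not separate support. Epha5 was most like Trpc5 (0.76), Rtl4 (0.74) and Clvs1 (0.71), and Epha6 most like Gria4 (0.68), Nalcn (0.64) and Me2 (0.63). Epha7 was most like Adgrl2 (0.74), Focad (0.63) and Galnt14 (0.62), Epha8 most like Tyk2 (0.65), Dscaml1 (0.64) and Pdcd4 (0.60), and Epha10 most like Cdh12 (0.67), Adcy8 (0.65) and Iqsec3 (0.64).

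The other genes of the pathway, 30 in all, hold the rest of the ephrin-A and EphA families, ephrin-B ligands, and genes that carry or modify Eph signals. Between the neuron classes 1 was called higher in excitatory neurons, Chn1 (log2 ratio -0.33, edgeR adjusted p = 0.00506), a Rac GTPase-activating protein that acts after EphA4, and 1 in inhibitory neurons, Sipa1l1 (0.60, adjusted p = 0.00221), a Rap GTPase-activating protein. Another 23 were not called and 5 were too low to test. Over all genes tested, 9.48% were called higher in excitatory and 7.72% in inhibitory neurons. Of 21 genes at 10 CPM or more, 2 were higher at P21 than at E19 by more than 1.5-fold in excitatory neurons, 4 lower and 15 within it, and in inhibitory neurons 2 were higher, 7 lower and 12 within. Over all genes, 12.5% were higher and 21.9% lower in excitatory neurons, and 13.8% and 22.1% in inhibitory neurons. The median log2 ratio over the 21 was -0.29 and -0.23. Sipa1l1 went from 80.8 to 186 CPM in excitatory and from 123 to 241 CPM in inhibitory neurons, and Ngef, a guanine nucleotide exchange factor that binds EphA4, from 23.6 to 42.0 and from 15.9 to 65.5 CPM. Efnb3, an ephrin-B ligand of EphA4, went from 79.9 to 6.71 and from 81.5 to 12.4 CPM, next to Vav2 (log2 ratios of -1.08 and -1.22) and Tiam1 (-0.88 and -0.85), which are guanine nucleotide exchange factors. Against neurons, 8 of the 30 were called higher in astrocytes and 7 higher in neurons by edgeR, 11 were not called and 4 were too low to test. Over all genes tested, 21.9% were called higher in astrocytes and 23.1% higher in neurons. In astrocytes 3 were higher at P21 than at E19, 8 lower and 13 within 1.5-fold, of 24 at 10 CPM or more. Over all genes, 14.7% were higher and 33.0% lower there.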

How the data were processed

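Counts were UMIs per gene and nucleus, made by the authors with Cell Ranger 3.0.2 against an mm10 pre-mRNA reference, per the labels, so intronic reads were counted. The deposited annotation gave each nucleus its stage, class and subtype, with a percent of mitochondrial counts per nucleus of at most 5% as deposited. All 9724 nuclei were used with no further filter or doublet call, and 8 columns of the annotation were not used. Summed UMIs per class and library were compared with edgeR 4.0.16 (quasi-likelihood, library as a block, Benjamini-Hochberg adjustment over all filtered genes), and DESeq2 1.42.0 was an alternative. The 4 libraries that serve as blocks differ in stage, and p-values measure the spread of the class ratio over them. Stage ratios used CPM plus 5 CPM, a limit of 1.5-fold and a minimum of 10 CPM, without a test. Intervals are exact Poisson or binomial at 95% and cover counting error only. Subtype values needed 20 nuclei, likeness and spread 50. Tests and ratios were tested on simulated data with known changes. The neuron class was checked against transmitter UMIs: 655 neurons had no call, and 95.4% of the rest matched their annotation. The members and lists were chosen with earlier results of these data known. All 10 members are named, and pathway genes are named by the 3 largest changes each way. Python 3.11.15 and R 4.3.3 were used.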

Additional observations from a re-analysis of the deposited data

Results flagged for a closer look

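Epha3 went opposite ways in the neuron classes, beyond counting error. From E19 to P4 it was 1.44-fold higher in excitatory neurons and at 0.889 of its level in inhibitory neurons. From P4 to P8 it was at 0.468 in excitatory and at 1.14-fold in inhibitory neurons. EN7, almost absent after P4, held the highest excitatory levels, and without it the excitatory log2 ratio from P4 to P8 was -0.22. Medians over subtypes did not show these opposite moves: the Epha3 ratio was 0.877 and 0.933 for these steps in excitatory and 1.01 and 0.838 in inhibitory subtypes.

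Among receptors whose class difference was not called, the higher class changed between libraries, beyond counting error. The inhibitory level of Epha4 was 0.753 of the excitatory one at P4 and 1.13-fold at P21. For Epha6 the ratio was 0.840 and 0.964 in the E19 and P8 libraries and 1.10 and 1.06 in the P4 and P21 libraries. For Epha7 it was 1.10 at P8 and 0.871 at P21. With 1 library per stage, none of these differences was tested.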

How the results depend on the processing

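No called member changed direction under any alternative that was run. Between the neuron classes, 0 members were called higher in inhibitory and 0 in excitatory neurons without the library block, where stage differences enter the residual, against 2 and 3 with it. Leaving out 1 library gave 1 to 2 members higher in inhibitory neurons: Epha3 was not called without the E19, P8 or P21 library. No other choice moved these counts by over 1.5 times. Over all genes, the count higher in inhibitory neurons was 1142, and 624 with DESeq2, 85 without the block (98 higher in excitatory neurons, against 1403), 655 without E19, 599 without P4 and 475 without P8, which also left 757 higher in excitatory neurons. From E19 to P21, weighting subtypes alike gave 1 member higher in excitatory neurons (Epha5, against 0) and 1 in inhibitory neurons (Epha6, against 2). Median-of-ratios scaling left 2 lower in excitatory neurons (against 4), and a pseudocount of 20 CPM left 2 lower in inhibitory neurons (against 4) and 0 higher in astrocytes (against 2). Of 840 stage ratios under alternatives, 38 moved. The class levels themselves were less steady. With every nucleus thinned to the same number of UMIs, 42 member levels in a neuron class moved and 38 stayed the same. Nuclei weighted alike was chosen after seeing the data for the class ratio, and no member moved under it. With subtypes weighted alike, the mean log2 ratio of inhibitory over excitatory neurons was -0.0049 for Efna2 and -0.22 for Epha6. The class tests pair the classes by library, and stages could not be paired, each being 1 library. Depth limits Efna2, Efna3 and Epha8, whose subtype orders rest on few UMIs.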
